A study of Mus musculus with 6 samples.

Results

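The genes described here build the centromere and the kinetochore and run the spindle checkpoint. The 35 genes were taken as a list of names, and every gene probe whose name in the scanner tables was on the list was used. This gave 52 probes for 35 of the 24216 gene names on the array, 22 genes with 1 probe and 13 with several. Total RNA was measured on 1-colour Agilent arrays in mouse embryonic stem (ES) cells, in 3 Zscan5b knockout samples and 3 wild type samples that the design text calls biological replicates. The protein that Zscan5b encodes carries a SCAN domain and zinc fingers. All 6 samples came from cells held undifferentiated with leukemia inhibitory factor over fibroblast feeders stopped from dividing with mitomycin C, and the labels record no treatment that separates the genotypes. The labels do not place the deletion or say how many clones the knockout samples came from. If the samples were not separate cultures, the p-values measure only technical spread.

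The centromere is marked by nucleosomes that carry CENP-A, a variant of histone H3, which its chaperone HJURP deposits. On this chromatin sits an inner layer of CENP proteins, the constitutive centromere-associated network (CCAN). During mitosis the CCAN recruits the KNL1, MIS12 and NDC80 complexes, which hold the microtubules. The BUB and MAD proteins and the kinase MPS1 (gene Ttk) delay anaphase until every kinetochore is attached. ES cells divide rapidly, and many of these genes are transcribed mainly late in the cell cycle. The MuvB core complex binds the CHR element (TTTGAA) in promoters of that class, and the factor NF-Y binds CCAAT boxes there.

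Hjurp was the member on which a result rests, and its probe sequences are shown because its probes read separate stretches of the gene. They are 60 bases each, written 5′ to 3′, with positions on the minus strand of mm9 chromosome 1. The probe A_65_P01247 lies at 90161678 to 90161737, A_55_P1968200 at 90161763 to 90161822 and A_55_P2045096 at 90165897 to 90165956. No pair of them overlaps, and the closest pair is 25 bases apart. A further probe, A_55_P2018181 at 90161403 to 90161462, carries the file's name A730008H23Rik, which the RefSeq table (GRCm38.p6, used for names) lists as a synonym of Hjurp. It was not counted as a member probe. Exon and UTR annotation of mm9 was not used here.
Hjurp A_65_P01247: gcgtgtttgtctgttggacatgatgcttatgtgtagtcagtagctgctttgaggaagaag
Hjurp A_55_P1968200: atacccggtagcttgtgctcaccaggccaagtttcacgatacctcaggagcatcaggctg
Hjurp A_55_P2045096: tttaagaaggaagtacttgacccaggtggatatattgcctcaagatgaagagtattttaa
A730008H23Rik A_55_P2018181: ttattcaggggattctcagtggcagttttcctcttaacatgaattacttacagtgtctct

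The promoters of Hjurp, of its cargo Cenpa and of Cenpf are shown with CCAAT and TTTGAA, on either strand, in capitals. They are RefSeq sequences of GRCm38.p6 that run from 250 bases before to 50 after a transcript start. The Hjurp window is chr1:88277530-88277829 on the minus strand, the Cenpa window chr5:30666636-30666935 on the plus strand and the Cenpf window chr1:189688037-189688336 on the minus strand. In all 3, TTTGAA began shortly after the start, at 19 bases in Hjurp, 16 in Cenpa and 2 in Cenpf, where the start counts as 0. CCAAT lay upstream, once in Hjurp and 2 times each in Cenpa and Cenpf.
Hjurp promoter: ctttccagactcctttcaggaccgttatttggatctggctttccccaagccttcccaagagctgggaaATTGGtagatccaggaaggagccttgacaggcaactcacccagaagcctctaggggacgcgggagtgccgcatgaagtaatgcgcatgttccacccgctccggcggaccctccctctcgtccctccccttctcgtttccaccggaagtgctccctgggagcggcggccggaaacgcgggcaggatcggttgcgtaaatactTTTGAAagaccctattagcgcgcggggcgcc
Cenpa promoter: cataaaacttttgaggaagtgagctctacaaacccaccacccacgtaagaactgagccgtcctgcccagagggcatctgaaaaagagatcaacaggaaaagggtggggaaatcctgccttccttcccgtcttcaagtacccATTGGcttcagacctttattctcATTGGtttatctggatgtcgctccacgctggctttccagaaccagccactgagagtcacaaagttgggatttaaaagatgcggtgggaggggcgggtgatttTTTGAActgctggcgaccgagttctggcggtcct
Cenpf promoter: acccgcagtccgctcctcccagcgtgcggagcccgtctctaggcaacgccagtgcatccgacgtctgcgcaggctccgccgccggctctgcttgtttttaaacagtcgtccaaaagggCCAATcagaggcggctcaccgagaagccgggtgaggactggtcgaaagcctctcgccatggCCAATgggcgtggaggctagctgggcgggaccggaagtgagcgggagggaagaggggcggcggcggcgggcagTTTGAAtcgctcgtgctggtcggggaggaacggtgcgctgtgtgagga

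Promoter windows were listed for 32 of the 35 members, of which 21 (65.6%) held CCAAT on either strand, against 41.1% of all 27025 genes with such windows. TTTGAA was present in 12 (37.5%, against 20.2%), and both motifs in 9 (28.1%, against 8.97%). The palindrome TTCGAA was present in 4 (12.5%, against 1.8%), TTTCCCGC or TTTGGCGC, forms of the E2F site, in 4 (12.5%, against 1.8%), and TATAAA in 2 (6.25%, against 15.7%). Both strands were searched, none of the motifs spells out another, and a gene counted once over all its windows. A member had up to 3 windows. A match is a run of letters and not a measured site. Among the 9 members with both motifs, 7 were positive in log2 fold change (median 0.19), with a range from -0.16 (Bub3) to 0.83 (Hjurp). Among the other 23 members with a window, 10 were positive. Their median was -0.03, and their range, from -0.42 to 0.22, overlaps that of the 9. Outside the members the median was -0.03 in the 800 tested genes that held both motifs and -0.03 in the 10535 that did not. The motifs were chosen after the values were known, so these values are a description and no difference was tested.

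All values below are log2 signals relative to the array's own 75th percentile. Signals of different probes are not compared, because each probe has its own brightness. Probes that 3 or more of the 6 arrays read well above background entered the limma test, 26647 of 39429 gene probes, and a probe was called at an adjusted p below 0.05. Each array read between 25360 and 27737 gene probes well above background, and 75th percentiles were 852 to 1028. Zscan5b read -4.47, -5.17 and -5.13 in the knockout, against -3.66, -4.03 and -3.12 in wild type, at its only probe. All knockout values were below all wild type values, and the limma adjusted p was 0.107. A probe outside the deleted part would not check the genotype. Each genotype lay on its own slide and scan, so genotype and slide cannot be told apart. Of the ES cell markers with a tested probe, 15 of 15 were well above background on every array. So were 27 of 27 feeder fibroblast markers with a tested probe, none of which read 0. Markers without a tested probe were not counted, so these shares could not show an undetected marker. The summed signal of the feeder markers, in multiples of the 75th percentile, was 204.5, 239.1 and 192.5 in the knockout, against 205.1, 364.4 and 298.8 in wild type. Sparc and Fn1, the brightest of them, weigh most in this sum. Their log2 fold changes were -0.33 and 0.04, against a median of -0.86 over the 27 markers. The arrays are bulk samples, in which fewer cells of a type and less RNA per cell cannot be told apart.

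On the member probes the knockout arrays were alike, and wild type replicate 2 stood apart from the other wild type arrays. The SD of the log2 difference between a pair of arrays, over 50 tested member probes, was 0.10 to 0.19 within the knockout and 0.20 between wild type replicates 1 and 3. Between wild type replicate 2 and the other wild type arrays it was 0.36 and 0.43. Wild type replicate 2 lay closer to knockout replicates 2 and 3 (0.26 and 0.28) than to either array of its own genotype. Member probes whose call changed when this array was left out are therefore given with and without it. The array stood out on these same probes, so a call made without it is no independent support.

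Hjurp rose in the knockout, and no other member was called. At its brightest probe, A_65_P01247, it read -0.70, -0.96 and -0.80 in the knockout, against -1.61, -1.70 and -1.66 in wild type. Every knockout array lay above every wild type array by a wide margin compared with the spread within a genotype. The log2 fold change was 0.83 ± 0.11 (SE, n = 3 per group, limma adjusted p 0.0457), a 1.78-fold difference. At A_55_P1968200 the knockout arrays read -1.75, -1.91 and -1.91 and the wild type arrays -2.81, -2.77 and -2.78. This probe was also called, with a log2 fold change of 0.93 ± 0.10 and a limma adjusted p of 0.0377. The probe A_55_P2045096, some kilobases away on the genome, read -2.44, -2.32 and -2.29 in the knockout, against -3.21, -3.10 and -3.66 in wild type. Its log2 fold change was of the same size (0.97 ± 0.17), but with the wider wild type spread it was not called (limma adjusted p 0.0704). It was called with wild type replicate 2 left out (1.08, limma adjusted p 0.0341) and with array weights (1.06, limma adjusted p 0.0373), and all alternatives gave an adjusted p between 0.0341 and 0.283.

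The probe named A730008H23Rik gave a further reading for Hjurp outside the member rule. It read -0.45, -0.67 and -0.60 in the knockout, against -1.44, -1.48 and -1.50 in wild type, with a log2 fold change of 0.90 ± 0.10 and a limma adjusted p of 0.0377. The probes measure the same RNA on the same arrays and are not replicates of the comparison. At A_65_P01247 the 3 wild type arrays had an SD of 0.04, and their feeder marker sums spanned 205.1 to 364.4. Whether feeder RNA bears on the Hjurp difference was not tested. The difference was positive under every processing alternative tried, but the call was lost in most. Over 15 alternatives the log2 fold change ran from 0.64 to 0.90 at A_65_P01247 and from 0.71 to 0.96 at A_55_P1968200. The limma adjusted p ran from 0.0332 to 0.200 and from 0.0271 to 0.200, and the probes were called in 5 and 6 of the 15.

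**Figure D1:**
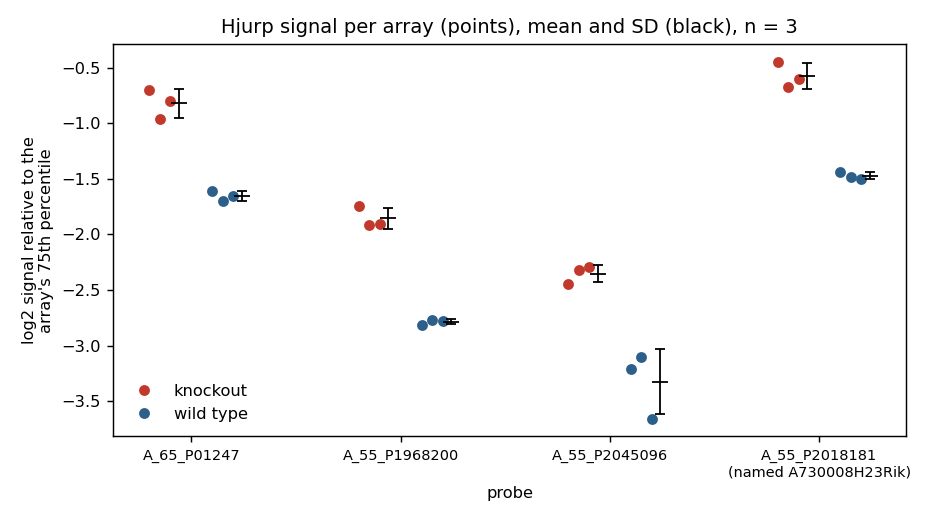
Log2 signal relative to the array's 75th percentile (y axis) at the 3 Hjurp probes and at the probe named A730008H23Rik (x axis). Red points are the 3 knockout arrays and blue points the 3 wild type arrays, with the mean and SD in black. The genotypes do not overlap at any of the 4 probes, and A_55_P2045096 has the widest wild type spread.

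In all, 2 of 50 tested member probes were called higher, both of Hjurp, against 0.124% of all tested probes called higher (33 of 26647). None was called lower, against 0.342% (91 probes). With no adjustment of p, 7 member probes were higher and 3 lower at 0.05, where the shares over all tested probes were 10.6% and 11.3%. The knockout arrays lay entirely above the wild type arrays at 11 of the 50 probes and entirely below at 4, against 13.6% and 15.4% of all tested probes. The lower count was thus below the general share and the higher count above it, with 3 of the 11 from Hjurp. The 11 also hold dim probes of Cenpb and Cenpp, whose brightest probes were negative. Probes of a gene are not independent, and no difference from the general share was tested. By brightest probe per gene, 20 of 35 members were positive and the median log2 fold change was 0.04. Over 17309 genes the median was -0.03, and 46.4% were positive.

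**Figure D2:**
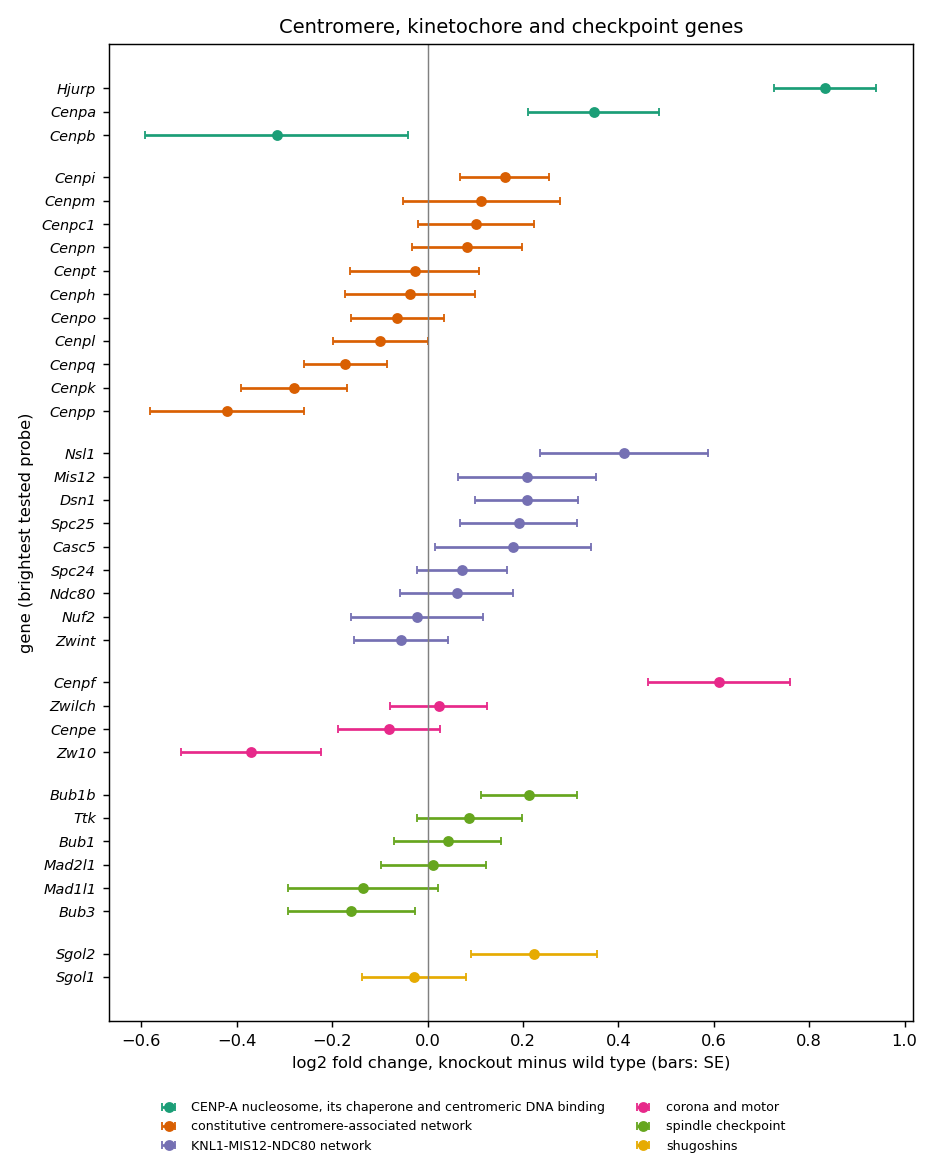
Log2 fold change, knockout minus wild type (x axis), with SE, at the brightest tested probe of each of the 35 genes (y axis), coloured by role. Hjurp at 0.83 and Cenpf at 0.61 lie farthest to the right and Cenpp at -0.42 farthest to the left. Of these genes, Hjurp alone was called.

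Cenpa, which encodes the histone variant that HJURP carries, read 3.82, 3.87 and 3.995 in the knockout, against 3.36, 3.77 and 3.51 in wild type (mm9 chromosome 5, 30974916 to 30975386). The genotypes did not overlap, but wild type replicate 2 came close to knockout replicate 1. The log2 fold change of Cenpa was 0.35 ± 0.14 (SE, n = 3 per group), with a 95% confidence interval from 0.02 to 0.68 and a limma adjusted p of 0.216. Its difference was thus smaller than that of Hjurp and was not called. Whether the 2 genes differ in response was not tested.

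Cenpb, whose protein binds the CENP-B box in centromeric satellite DNA, gave 3 readings that disagreed. The sequences of these probes are shown for that reason, with the polyadenylation signal AATAAA in capitals. The probe A_55_P2077213, listed in the file as unmapped, holds AATAAA and ends in a run of A. The probes A_55_P2077218 (131000948 to 131001007) and A_66_P139799 (131004187 to 131004246) lie on the minus strand of mm9 chromosome 2.
Cenpb A_55_P2077213: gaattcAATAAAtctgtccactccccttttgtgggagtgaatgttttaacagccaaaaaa
Cenpb A_55_P2077218: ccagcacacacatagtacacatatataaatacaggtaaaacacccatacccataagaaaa
Cenpb A_66_P139799: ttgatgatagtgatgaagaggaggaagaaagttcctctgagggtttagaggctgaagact

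The brightest Cenpb probe, A_55_P2077213, read 1.14, 0.86 and 0.89 in the knockout, against 1.60, 0.65 and 1.58 in wild type. Wild type replicate 2 was the lowest of all 6 arrays, whereas the other wild type arrays were the highest. The log2 fold change was -0.32 ± 0.28 with all arrays. With wild type replicate 2 left out it was -0.63 and called lower (limma adjusted p 0.0453, from 0.0453 to 0.793 over the alternatives). A_55_P2077218 read 0.43 ± 0.16 with no overlap between the genotypes, and A_66_P139799 read 0.02 ± 0.33. With another background correction (normexp), A_55_P2077218 fell to 0.11, whereas A_55_P2077213 read -0.35. The file's annotation assigns all 3 to Cenpb, and whether they detect the same transcript was not tested.

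The CCAN genes showed no call and no common direction. Of 11 genes, 4 were positive and 7 negative, with a median of -0.04. Cenpk, of the CENP-H, CENP-I and CENP-K subcomplex, read 2.32, 2.23 and 2.13 in the knockout, against 2.41, 2.46 and 2.64 in wild type at its brighter probe. Both Cenpk probes lay entirely below wild type, with log2 fold changes of -0.28 ± 0.11 and -0.26 ± 0.11, and neither was called (limma adjusted p 0.218 and 0.231). Cenpq, of the CENP-O, CENP-P and CENP-Q group, read -0.19, -0.21 and -0.20 in the knockout, against 0.00, -0.03 and -0.05 in wild type at its brighter probe. The difference of -0.17 ± 0.09 was small but separated the genotypes, and the dimmer Cenpq probe read -0.05 ± 0.10. By brightest probe, Cenpi was the only CCAN gene whose knockout arrays all lay above wild type. It read 0.51, 0.51 and 0.58 in the knockout, against 0.31, 0.36 and 0.43 in wild type, a difference of 0.16 ± 0.09.

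Cenpp had the lowest log2 fold change of the members at its brighter probe and the opposite sign at the dimmer. The brighter probe, A_51_P228171 (mm9 chromosome 13, 49560073 to 49560132), read 1.38, 1.21 and 1.09 in the knockout, against 1.92, 1.40 and 1.62 in wild type. The dimmer, A_55_P2073208 (49655585 to 49655644), read -5.48, -5.57 and -5.47 in the knockout, against -5.92, -5.81 and -5.82 in wild type. The genotypes separated completely at both, in opposite directions, with log2 fold changes of -0.42 ± 0.16 and 0.34 ± 0.09, and neither was called (limma adjusted p 0.211 and 0.141). The size at the dimmer probe depended on the background correction. Under normexp it was 0.08, against -0.44 at the brighter probe.
Cenpp A_51_P228171: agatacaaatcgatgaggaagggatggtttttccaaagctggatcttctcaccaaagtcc
Cenpp A_55_P2073208: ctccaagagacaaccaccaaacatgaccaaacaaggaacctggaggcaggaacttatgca

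The remaining CCAN genes overlapped between genotypes. Cenpc1, which links CENP-A chromatin to the MIS12 complex, read 0.10 ± 0.12, and Cenpt, which links it to NDC80, read -0.03 ± 0.14 with a 95% confidence interval from -0.36 to 0.30. Cenph read -0.04 ± 0.14, Cenpm 0.11 ± 0.17 and Cenpn, a reader of the CENP-A nucleosome, 0.08 ± 0.11. Cenpl (-0.10 and 0.05) and Cenpo (-0.06 and 0.29) each had probes of opposite sign. A p that misses the threshold does not show that these genes were equal between genotypes.

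The KNL1, MIS12 and NDC80 network had no call. Of its 9 genes, 7 were positive, with a median of 0.18. The mean over the 9 genes, as deviation from the mean of 6 arrays, was 0.10, 0.03 and 0.08 in the knockout, against -0.07, -0.05 and -0.09 in wild type. Nsl1, a MIS12 complex subunit, contributed most and read 1.84, 1.90 and 1.78 in the knockout, against 1.51, 1.71 and 1.07 in wild type. Its log2 fold change was 0.41 ± 0.18 with a low value in wild type replicate 3, and its dimmer probe read 0.05 ± 0.11. Dsn1, another subunit, read 0.70, 0.57 and 0.53 in the knockout, against 0.46, 0.27 and 0.44 in wild type, a difference of 0.21 ± 0.11. Mis12 itself read 0.21 ± 0.14 with overlap.

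Casc5, the older name of Knl1, encodes the scaffold to which BUB1 and BUB3 bind. It read 0.18 ± 0.16 at its brighter probe. At the dimmer probe, A_55_P2027317 (mm9 chromosome 2, 118898566 to 118898625), it read -3.22, -2.69 and -2.66 in the knockout, against -3.80, -2.37 and -4.08 in wild type. Wild type replicate 2 was the highest of all 6 arrays there. The log2 fold change was 0.56 ± 0.46 with it and 1.08 without it, where the probe was called (limma adjusted p 0.0443, from 0.0443 to 0.812 over the alternatives).

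The NDC80 complex grips the microtubule, and its subunits gave small differences. Ndc80 read 0.06 ± 0.12, Nuf2 -0.02 ± 0.14, Spc24 0.07 ± 0.09 and Spc25 0.19 ± 0.12, each with overlapping genotypes. The 95% confidence interval was -0.23 to 0.35 for Ndc80 and -0.16 to 0.30 for Spc24. No array read the other 2 Nuf2 probes well above background, and they were not tested. Zwint, a partner of KNL1, read -0.05 ± 0.10 and -0.24 ± 0.15 at its 2 probes.

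Cenpf, a microtubule-binding protein of the outer kinetochore, had the highest difference after Hjurp. It read -3.01, -2.84 and -2.94 in the knockout, against -3.66, -3.26 and -3.71 in wild type (mm9 chromosome 1, 191464978 to 191465037). The genotypes did not overlap, and wild type replicate 2 was again the wild type array nearest the knockout. The log2 fold change was 0.61 ± 0.15 (SE, n = 3 per group, limma adjusted p 0.119), a 1.53-fold difference that was not called with all arrays. It was 0.75 and called without wild type replicate 2 (limma adjusted p 0.0325), and 0.34 at the lowest of the alternatives, with adjusted p from 0.0325 to 0.370. Without that array 5 member probes were called higher and 1 lower, where 5.29% and 4.31% of all tested probes were called. The 5 were the Hjurp member probes, Cenpf and the dimmer Casc5 probe, and the 1 was the brightest Cenpb probe.

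None of the other corona and motor genes was called. Cenpe, the kinesin that carries chromosomes toward the spindle equator, read 3.69, 3.71 and 3.55 in the knockout, against 3.83, 3.73 and 3.63 in wild type. Its difference was -0.08 ± 0.11 with a 95% confidence interval from -0.34 to 0.18. Zw10, of the complex that brings dynein to kinetochores, read 0.81, 0.52 and 0.50 in the knockout, against 1.07, 0.76 and 1.11 in wild type. Knockout replicate 1 overlapped wild type replicate 2, and the log2 fold change was -0.37 ± 0.15 (limma adjusted p 0.220). Zwilch, of the same complex, read 0.02 ± 0.10 and -0.16 ± 0.12 at its 2 probes.

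**Figure D3:**
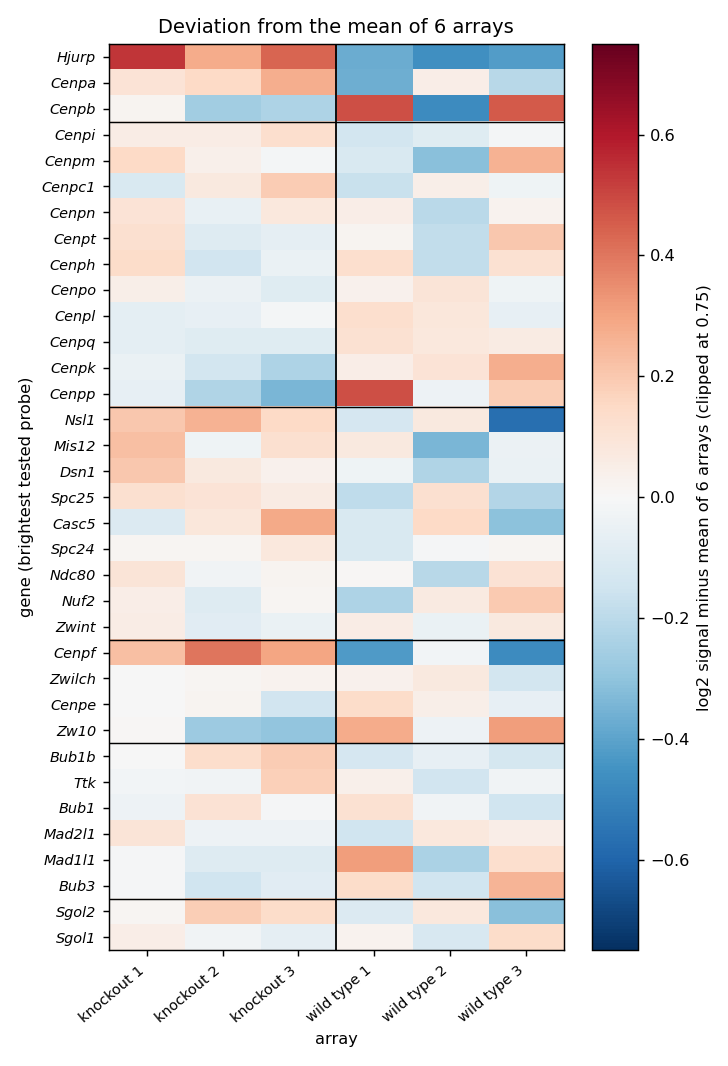
Deviation of each gene's log2 signal from its mean over the 6 arrays (colour), with arrays in columns (3 knockout, 3 wild type) and the brightest tested probe of the 35 genes in rows. Hjurp and Cenpf are red in all knockout columns and blue in the wild type columns, faintly so for Cenpf in wild type replicate 2. Most rows do not split at the line between genotypes.

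None of the spindle checkpoint genes was called, and 4 of 6 were positive, with a median of 0.03. Bub1b, which encodes BUBR1, an inhibitor of the anaphase-promoting complex, was the checkpoint gene whose genotypes separated. It read 2.30, 2.43 and 2.49 in the knockout, against 2.18, 2.24 and 2.17 in wild type, a difference of 0.21 ± 0.10 (limma adjusted p 0.267). The kinases Bub1 and Ttk read 0.04 ± 0.11 and 0.09 ± 0.11. Bub3, the adaptor that places BUB1 and BUBR1 on KNL1, read -0.16 ± 0.13. Mad1l1 read -0.13 ± 0.16, and its partner Mad2l1, the MAD2 protein of the checkpoint effector, read 0.01 ± 0.11 at its brightest probe. The interval for Mad2l1 was -0.26 to 0.28, and its other probes read -0.04 and 0.12.

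The shugoshins, which guard centromeric cohesin, were not called either. Sgol1 read 3.00, 2.93 and 2.89 in the knockout, against 2.98, 2.83 and 3.09 in wild type, a difference of -0.03 ± 0.11. Sgol2 read 0.87, 1.05 and 1.00 in the knockout, against 0.76, 0.94 and 0.55 in wild type, a difference of 0.22 ± 0.13. The genotypes overlapped in both.

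Several probes of a gene often gave different answers. Among the 12 genes with at least 2 tested probes, the signs agreed in Hjurp, Cenpk, Cenpq, Nsl1, Casc5 and Zwint and differed in Cenpb, Cenpl, Cenpo, Cenpp, Zwilch and Mad2l1. Only in Hjurp was any probe called. The Hjurp probes spanned 0.83 to 0.97, whereas those of Cenpp spanned -0.42 to 0.34 and those of Cenpb -0.32 to 0.43.

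**Figure D4:**
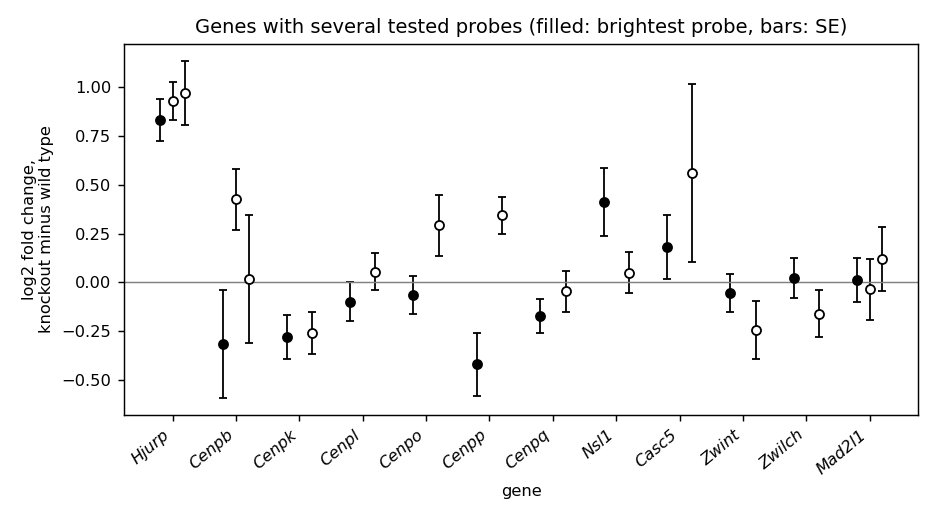
Log2 fold change, knockout minus wild type, with SE (y axis), for each tested probe of the genes with several tested probes (x axis). Filled points are the brightest probe. The 3 Hjurp probes lie together between 0.83 and 0.97, and the probes of Cenpb and Cenpp fall on both sides of 0.

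Other genes of the pathway, outside the 35, gave no call. Of 6 further genes of CENP-A deposition, 2 were positive, with a median of -0.18. They include Oip5, a subunit of the MIS18 complex that prepares centromeres for HJURP, at 0.26 ± 0.09, and Ssrp1, a subunit of the histone chaperone FACT, at -0.33 ± 0.10. Of 11 other inner centromere genes, 4 were positive (median -0.11), with the kinase gene Aurkb at 0.46 ± 0.17 and the CENP-T partner Cenpw at -0.23 ± 0.10. Of 13 other outer kinetochore genes, 9 were positive (median 0.10), with the kinesin gene Kif2c at 0.33 ± 0.12 and Ranbp2 at -0.26 ± 0.09. Of 24 other checkpoint and anaphase genes, 10 were positive (median -0.05), with Cdc26 at -0.55 ± 0.13 and Cdc27 at -0.36 ± 0.10, both subunits of the anaphase-promoting complex. In these 4 lists together, 4 genes were higher and 10 lower at an unadjusted p below 0.05, against 9.47% and 12.3% of all 17309 genes.

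Genes that mark phases of the cell cycle were set beside them. Of 19 mitotic marker genes, 15 were positive with a median of 0.25, and at 11 of them the knockout arrays lay entirely above wild type and at 1 entirely below, against 12.3% and 16.4% of all 17309 genes. None was called, and 4 were higher and 1 lower at an unadjusted p below 0.05 (9.47% and 12.3% of all genes). Anln read 0.38 ± 0.10 and Kif23, a kinesin of the central spindle, 0.38 ± 0.11. The 19 were listed with earlier results known, and mitotic genes placed in the checkpoint and anaphase list varied. Among those, Cdc20 read -0.09 ± 0.10, Ccnb1 0.01 ± 0.09, Plk1 0.08 ± 0.09, Ccnb2 0.20 ± 0.12 and Espl1 0.35 ± 0.12. They were picked from a list in which 14 of 24 genes were negative. Of 22 G1/S and replication markers, 9 were positive with a median of -0.05, with Cdc45 at 0.43 ± 0.10 and Tyms at -0.31 ± 0.11. The mitotic mean per array was 0.03, 0.09 and 0.13 in the knockout, against -0.09, -0.01 and -0.15 in wild type. Of the feeder markers, 26 of 27 were negative with a median of -0.86. Their mean per array was -0.66, -0.21 and -0.53 in the knockout, against -0.65, 1.13 and 0.92 in wild type, so wild type replicate 1 lay with the knockout arrays and replicates 2 and 3 stood apart. Only 3 of the 27 were entirely below wild type (16.4% of all genes), among them Serpinh1 at -0.65 ± 0.13 and Vim at -0.74 ± 0.18. None was called, 6 were lower at an unadjusted p below 0.05 (12.3% of all genes), and the part of feeder RNA in the members' values was not tested. Of the ES cell markers, Pou5f1 read -0.47 ± 0.10 and Nanog 0.66 ± 0.22, with 7 of 15 positive and none called.

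**Figure D5:**
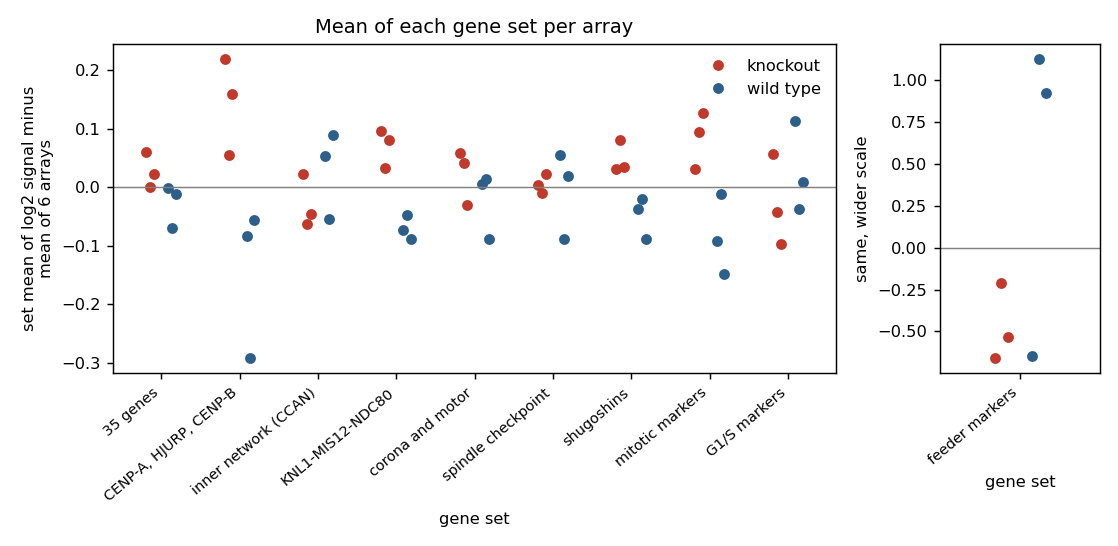
Mean of each gene set per array, as log2 signal minus the mean of the 6 arrays (y axis), for the 35 genes, their role groups and marker sets (x axis). Red points are knockout and blue points wild type arrays, and feeder markers have their own wider axis. The genotypes separate narrowly over the 35 genes and also for CENP-A, HJURP and CENP-B, the KNL1, MIS12 and NDC80 group, the shugoshins and the mitotic markers. They overlap for the CCAN, the corona and motor genes, the checkpoint genes, the G1/S markers and the feeder markers. The 35 genes and the CENP-A, HJURP and CENP-B group both hold Hjurp, the only called member. Without Hjurp the genotypes overlap in both.

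The mean over the 35 genes was 0.06, 0.00 and 0.02 in the knockout, against -0.00, -0.07 and -0.01 in wild type. Knockout replicate 2 and wild type replicate 1 were nearly level. The shift between genotypes was thus of the order of the spread between arrays (SD 0.03 and 0.04, n = 3). Hjurp is among the 35, and without it the per-array means of the genotypes overlap. Among 14314 named genes, the 5 whose signal over the 6 arrays was most like that of Hjurp at A_65_P01247 were Id2, Slc25a1, Tbc1d20, Atp6v0a2 and Sema6d, with Pearson correlations from 0.994 to 0.997. Their log2 fold changes were 0.96, 0.30, 0.26, 0.20 and 0.48, and Id2, whose protein blocks basic helix-loop-helix factors, was the only gene of the 5 that was called (limma adjusted p 0.0377). With 6 arrays in 2 groups on 2 slides, such a correlation mostly follows the split between the groups. Among the members the highest correlation with Hjurp was that of Cenpi (0.87), and Cenpq had the lowest (-0.95).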

How the data were processed

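Spot intensity on a linear scale was deposited by the authors as Agilent Feature Extraction tables. Per the file headers, version 10.7.3.1 applied a spatial and a multiplicative detrend and used surrogate values near background, with probe positions on mm9. Version 10.3.1.1 stands in the submitters' processing notes. The authors' series table holds log2 values, with each probe's median over the arrays within 0.005 of 0, and its scaling is not stated. Against probe-centred scanner values it had correlations of 0.985 to 0.995, taken over probes that are not independent replicates, and its column medians ran from -0.07 to 0.03. It served as an alternative. Flags of 0 or 1 per spot, in the deposited tables, have no unit.

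Control and outlier spots were left out, spots of a probe were averaged as log2 processed signal, and the 75th percentile of each array was taken off. A probe counted as well above background if at least 50% of its kept spots were. No spot was saturated. Genotypes were compared over all 26647 tested probes with limma 3.58.1 (lmFit, eBayes, two-sided, Benjamini-Hochberg, threshold 0.05) in R 4.3.3, without the replicate number as a block, and the code was tested on simulated data. Files were read with the R package data.table, version 1.17.8. The number of arrays limits the precision. The brightest tested probe represented a gene. The named genes were all members, Zscan5b, the 2 genes with the smallest p in each other list, where none was called, and the 5 genes most like Hjurp. Cdc20, Ccnb1, Plk1, Ccnb2 and Espl1 were added to set beside the mitotic markers. Members and lists were chosen with earlier results of these data known.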

Additional observations from a re-analysis of the deposited data

How the results depend on the processing

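The analysis was repeated with 9 other settings, without each array, and for the median with probes averaged per gene. With all arrays, 33 probes were called higher and 91 lower by limma, 2 and 0 of them member probes. There were 0 calls of any kind under normexp (offset 50), without a detection filter, with detection on all 6 arrays, with a trended and robust prior and with the replicate block, although 5152 to 6514 probes had an unadjusted p below 0.05 there. Quantile normalization gave 50 higher and 131 lower. Centring on the tested probes' median (the median shift) gave 54 higher and 177 lower, and array weights 434 higher and 406 lower. Member probes called higher numbered 1 under the median shift and 4 with array weights. The members' median was 0.10 under quantile normalization, -0.013 under the median shift and 0.01 (0.0053) with array weights, against 0.04, so its sign is not settled. Leaving out 1 array gave 0 to 1409 higher and 0 to 1148 lower probes, 0 to 5 and 0 to 1 member probes and a median of 0.0051 to 0.0707. Without wild type replicate 1 the counts were 203 and 437, and without wild type replicate 2 they were 1409 and 1148. Without wild type replicate 3 or any knockout replicate they were 0. The cause of these changes was not tested. Over 765 values of 51 probes (members and Zscan5b), 41 changed sign, in 19 probes. None of these was called, and their size was at most 0.12 with all arrays. Zscan5b was called with array weights (-1.58) and without wild type replicate 2 (-1.54).

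In the replicate block fit Hjurp at A_65_P01247 kept its log2 fold change of 0.83 with an adjusted p of 0.183. Samples with the same number shared only a number, which is also the position on the slide: their deviations correlated by 0.162, 0.232 and -0.144, and not every sample correlated best with its own number. Signal over background limits 2 Nuf2 probes, which were not tested. Some dim tested probes also depended on the background correction. Under normexp Cenpb A_55_P2077218 went from 0.43 to 0.11, Cenpp A_55_P2073208 from 0.34 to 0.08 and Cenpf from 0.61 to 0.34.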
